A study of Mus musculus with 6 samples.

Results

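Bhlhe40 and 9 genes of the circadian clock (Bhlhe41, Per1, Per2, Per3, Cry1, Cry2, Nr1d1, Nr1d2 and Dbp) were followed in sorted bone marrow hematopoietic stem cells (HSCs) of Cdk19 knockout and wild-type mice. The 10 genes are those whose symbol stands alone on a transcript cluster, the set of probes a whole-transcript array assigns to a gene, out of 30142 genes named in that way. Each of the 10 had 1 cluster, and the name of every cluster gave the chromosome of its gene. Bhlhe40 was selected on its log2 difference between knockout and wild-type arrays, among the largest rises in the table, so that difference is given as a description without a test. The other 9 were taken as clock genes, with earlier results of these data known.

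The CDK19-/- group and the wild-type group had 3 arrays each, labelled biological replicates. Mice of both groups were 6 to 8 weeks old, and marrow cells were depleted of lineage-positive cells and sorted for HSC markers. The labels name neither the deleted part of Cdk19, a Cre or promoter, the strain, the sex, the gate, nor how many animals an array holds, so the p-values measure the spread between these arrays. They also give no hour of collection, and there is 1 collection per array, so a rhythm cannot be described. Cdk19 read 11.49, 11.42 and 11.51 in the knockout arrays and 12.49, 12.45 and 12.38 in the wild-type arrays, with all knockout arrays below all wild-type arrays. Its log2 difference was -0.97 (SE 0.05, limma, adjusted p = 3.2e-04). Probes outside the deleted part could still report transcript, but the source of the remaining signal was not tested.

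The mammalian clock is a loop of transcription and repression. CLOCK (or NPAS2) and BMAL1, the product of Arntl, bind the E-box sequence and switch on the Per, Cry, Nr1d and Dbp genes, and the PER and CRY proteins then shut off this activation. The REV-ERB receptors (Nr1d1, Nr1d2) repress Arntl and ROR receptors activate it, while DBP and its relatives act on D-box elements. BHLHE40 and BHLHE41, also called DEC1 and DEC2, are basic helix-loop-helix repressors that bind the E-box too. Bhlhe40 is besides a gene induced by hypoxia, TGF-beta and immune stimuli, and Per1 is an early response gene with cAMP and glucocorticoid control. Clock genes of the marrow niche are known for the daily release of HSCs into blood.

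Values are log2 expression as deposited, and differences are knockout minus wild type. A cluster was called where limma's Benjamini-Hochberg adjusted p over 39543 tested clusters was below 0.05. This held for 7.80% of clusters, 2.96% higher and 4.84% lower in knockout, and the median log2 difference of all tested clusters was 0.00. These shares cover all tested clusters, of which 20260 had 1 gene symbol, whereas every list gene stands on a cluster with 1 symbol. SDs are over 3 arrays and intervals are 95% intervals of the moderated fit, not adjusted for the number of clusters. Levels of different genes come from different probes and were not compared.

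Bhlhe40 was far higher in every knockout array, Per1 rose by a smaller amount, and the other 7 members tested did not pass. Bhlhe40 (chromosome 6) read 11.31, 11.36 and 11.31 in the knockout arrays and 9.33, 9.19 and 9.21 in the wild-type arrays. The lowest knockout array lay well above the highest wild-type array, and the arrays of each genotype lay close together. Bhlhe40 averaged 11.33 ± 0.03 in knockout and 9.24 ± 0.08 in wild type (SD, n = 3 each), a log2 difference of 2.08 or 4.24-fold. With 1 array left out the difference ran from 2.06 to 2.13.

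By size of rise, Bhlhe40 was number 8 of 20260 tested clusters with 1 gene symbol and number 12 of all 39543. Just above it stood Cxcl2, a chemokine gene, with a log2 difference of 2.14 and the immunoglobulin segment Igh-VS107 with 2.13. Just below it stood Nr4a3, an orphan nuclear receptor gene, with 1.997 and a cluster named for Mir325 with 1.98. The Mir325 cluster lies on chromosome 13 by its name and the gene on X, and immunoglobulin segments have similar copies, so what these clusters report is uncertain.

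The genes whose values over the 6 arrays lay nearest to those of Bhlhe40 were sought among 13919 named clusters, predicted genes left out. Likeness was the Euclidean distance between values with each gene's own mean taken off, on the log2 scale. The nearest 5 were Nr4a3 at 0.25, Igh-VS107 at 0.35, Cxcl2 at 0.36, Ptgs2 (the prostaglandin enzyme COX-2) at 0.40 and Fosl2 (an AP-1 factor) at 0.41. Their Pearson correlations with Bhlhe40 ran from 0.991 to 0.997, as a description over 6 arrays that share the split by genotype. Ptgs2, for example, read 14.23, 14.15 and 14.31 in knockout and 12.33, 12.44 and 12.45 in wild type.

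The close relative Bhlhe41 (chromosome 6) read 3.71, 3.74 and 3.65 in knockout and 3.65, 3.68 and 3.68 in wild type. The groups overlapped and differed by 0.03. All 6 values lay under the limit of 4.09 that marks the dimmest 40% of clusters, so Bhlhe41 was not tested and a change at so dim a level would be hard to see.

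**Figure D1:**
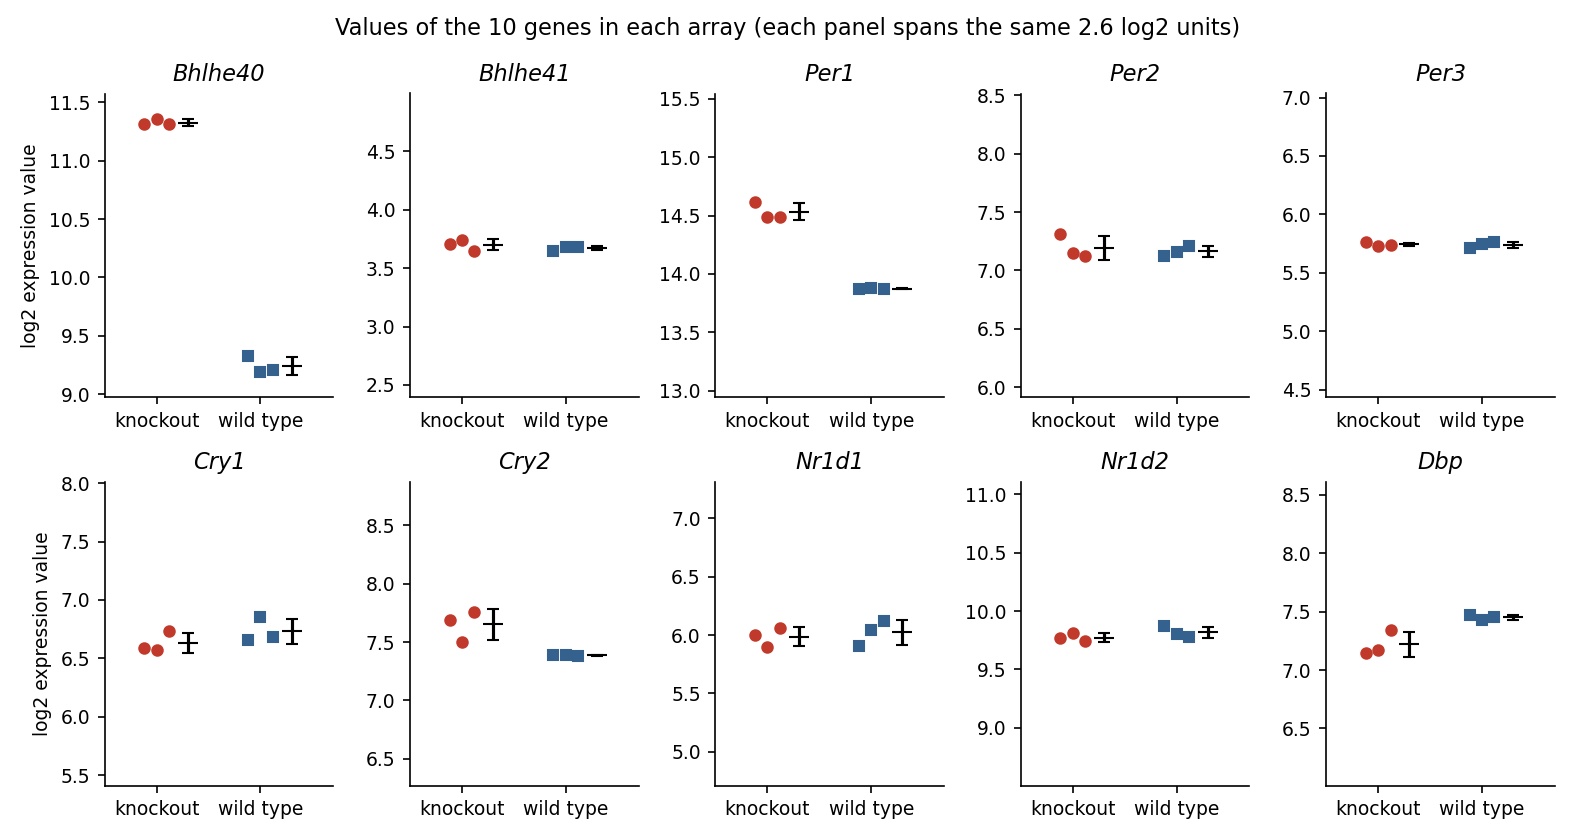
Log2 expression values of the 10 genes in the 3 knockout arrays (circles) and the 3 wild-type arrays (squares), with the mean and SD beside them; each panel covers the same span of log2 units around its own centre. Bhlhe40 averaged 11.33 in knockout and 9.24 in wild type, and Per1 averaged 14.53 in knockout and 13.87 in wild type. The other panels show smaller distances, with groups that do not overlap for Cry2 and Dbp.

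Among the period genes, which encode the PER repressors, Per1 was the member that passed. Per1 (chromosome 11) read 14.62, 14.49 and 14.49 in knockout and 13.87, 13.88 and 13.87 in wild type. Every knockout array lay above every wild-type array, and the wild-type arrays differed by no more than the last digit. Per1 rose by 0.66 on the log2 scale (SE 0.05, interval 0.54 to 0.78; limma, adjusted p = 0.0010), or 1.58-fold. The adjusted p ran from 0.0033 to 0.0099 with 1 array left out.

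Per2 (chromosome 1), the partner of PER1 in the repressor complex, read 7.31, 7.15 and 7.12 in knockout and 7.12, 7.16 and 7.21 in wild type. The groups overlapped, the difference was 0.03 and the interval ran from -0.15 to 0.21 (limma, adjusted p = 0.87). Per3 (chromosome 4), which is dispensable for the core rhythm in mice, read 5.76, 5.73 and 5.74 in knockout and 5.71, 5.75 and 5.76 in wild type. Its difference was 0.00, with an interval of -0.13 to 0.14 (limma, adjusted p = 0.99). Per1 exceeded Per2 in its change by 0.63 and Per3 by 0.66. Each of these comparisons gave p = 0.10 by a two-sided exact permutation test over arrays, the smallest p that 3 against 3 arrays allow, and the adjusted p over the 3 pairs compared was 0.10.

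The cryptochromes, which join the PER proteins in the repressor complex, did not pass. Cry1 (chromosome 10) read 6.59, 6.57 and 6.73 in knockout and 6.66, 6.85 and 6.68 in wild type, overlapping groups. It differed by -0.10, with an interval of -0.30 to 0.10 (limma, adjusted p = 0.56). Cry2 (chromosome 2) read 7.69, 7.50 and 7.76 in knockout and 7.39, 7.39 and 7.38 in wild type. The groups did not overlap, and knockout array 2 lay nearest to the wild-type arrays. Its difference was 0.26, with an interval of 0.07 to 0.46 that leaves out 0 and an adjusted p that misses the threshold (limma, 0.11). Without knockout array 2 the difference was 0.34 and Cry2 was called (adjusted p = 0.043). The changes of Cry2 and Cry1 lay 0.36 apart (two-sided exact permutation test, p = 0.10, adjusted p = 0.10 over the same 3 pairs).

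Of the REV-ERB genes, Nr1d1 (chromosome 11) read 6.00, 5.90 and 6.06 in knockout and 5.91, 6.04 and 6.12 in wild type. Nr1d2 (chromosome 14) read 9.77, 9.81 and 9.74 in knockout and 9.87, 9.80 and 9.78 in wild type. The groups of both genes overlapped. The difference was -0.04 for Nr1d1 (interval -0.23 to 0.16; limma, adjusted p = 0.86) and -0.04 for Nr1d2 (interval -0.17 to 0.09; limma, adjusted p = 0.73).

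Dbp (chromosome 7), an output factor that often has the widest daily swing of the clock genes in mouse tissues, read 7.15, 7.17 and 7.34 in knockout. In wild type it read 7.47, 7.43 and 7.45, above every knockout array. The difference was -0.23, the interval -0.40 to -0.06 left out 0, and the adjusted p missed the threshold (limma, 0.12). It lay between 0.062 and 0.28 with 1 array left out.

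Of the 9 members beside Bhlhe40, 8 passed the filter on dim clusters, 1 of them was called higher, 0 lower and 7 not called. Over all tested clusters 2.96% were called higher and 4.84% lower. At an unadjusted p below 0.05 the limma fit held 3, Per1, Cry2 and Dbp, where 21.6% of all tested clusters passed that mark. Groups did not overlap for these 3 of the 8, against 26.5% of all tested clusters. The median log2 difference of the 8 was -0.02. The 7 that were not called had differences between -0.23 and 0.26, so a change of the size seen in Per1 lay outside their intervals.

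Promoters of 8 members were found in the RefSeq table of GRCm38.p6, with 2 starts for Per1; Bhlhe40 and Per2 had no entry. The 250 bases before each start were searched on both strands for the E-box CACGTG, the cAMP response element TGACGTCA, its half-site TGACG, which lies within it, 1 form of the D-box, TTATGTAA, and the nuclear receptor half-site AGGTCA. Both Per1 starts are shown since Per1 is the member that passed the test. Those of Per3 and Cry1 are shown because they match the E-box or this D-box form in genes that did not pass. Capitals mark E-boxes, this D-box form and TGACG on either strand, and each sequence runs 5′ to 3′ on the strand of its gene.
Per1 start 1, chr11:69098699-69098948, plus strand: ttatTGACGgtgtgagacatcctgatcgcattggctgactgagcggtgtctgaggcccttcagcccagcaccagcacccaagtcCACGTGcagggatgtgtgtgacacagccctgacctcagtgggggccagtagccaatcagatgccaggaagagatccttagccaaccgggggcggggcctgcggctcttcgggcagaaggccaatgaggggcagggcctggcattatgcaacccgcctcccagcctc
Per1 start 2, chr11:69099902-69100151, plus strand: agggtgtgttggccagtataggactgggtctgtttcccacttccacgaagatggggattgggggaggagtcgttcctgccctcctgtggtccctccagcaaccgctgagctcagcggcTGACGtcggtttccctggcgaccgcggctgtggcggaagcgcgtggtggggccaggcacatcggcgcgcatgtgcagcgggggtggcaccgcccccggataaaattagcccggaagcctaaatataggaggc
Per3, chr4:151044666-151044915, minus strand: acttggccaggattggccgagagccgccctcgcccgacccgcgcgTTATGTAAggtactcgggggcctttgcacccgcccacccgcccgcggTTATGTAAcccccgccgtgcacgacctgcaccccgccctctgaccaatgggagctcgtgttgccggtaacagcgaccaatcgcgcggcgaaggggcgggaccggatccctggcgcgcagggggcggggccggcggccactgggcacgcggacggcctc
Cry1, chr10:85185055-85185304, minus strand: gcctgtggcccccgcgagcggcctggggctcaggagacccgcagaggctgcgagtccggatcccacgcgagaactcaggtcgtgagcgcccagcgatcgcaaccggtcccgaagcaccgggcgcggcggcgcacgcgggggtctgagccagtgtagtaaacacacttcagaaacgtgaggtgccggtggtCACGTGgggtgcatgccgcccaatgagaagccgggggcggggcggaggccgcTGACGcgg

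An E-box stood before Per1 start 1, beginning 166 bases ahead of it, before Cry1 at 60 bases and before Bhlhe41 at 153 bases. That is 3 of 9 windows, where 6.02% of all 32851 promoter windows hold one. The half-site TGACG was in 4 of 9, both of Per1 (246 and 132 bases ahead) and those of Cry1 and Cry2, against 17.8% of all windows. The full element TGACGTCA was in 0 of the 9 and in 1.55% of all. Per3 held 2 matches to the D-box form searched, a motif of 0.819% of all windows. Other D-box forms were not searched, and Per1 start 1 holds the near match ttatgcaa. AGGTCA was before Per1 start 1 and Nr1d2, against 14% of all. A match is a description of the letters and not a site in use, and Per1, which rose, and Cry1, which did not pass, both hold an E-box and TGACG.

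**Figure D2:**
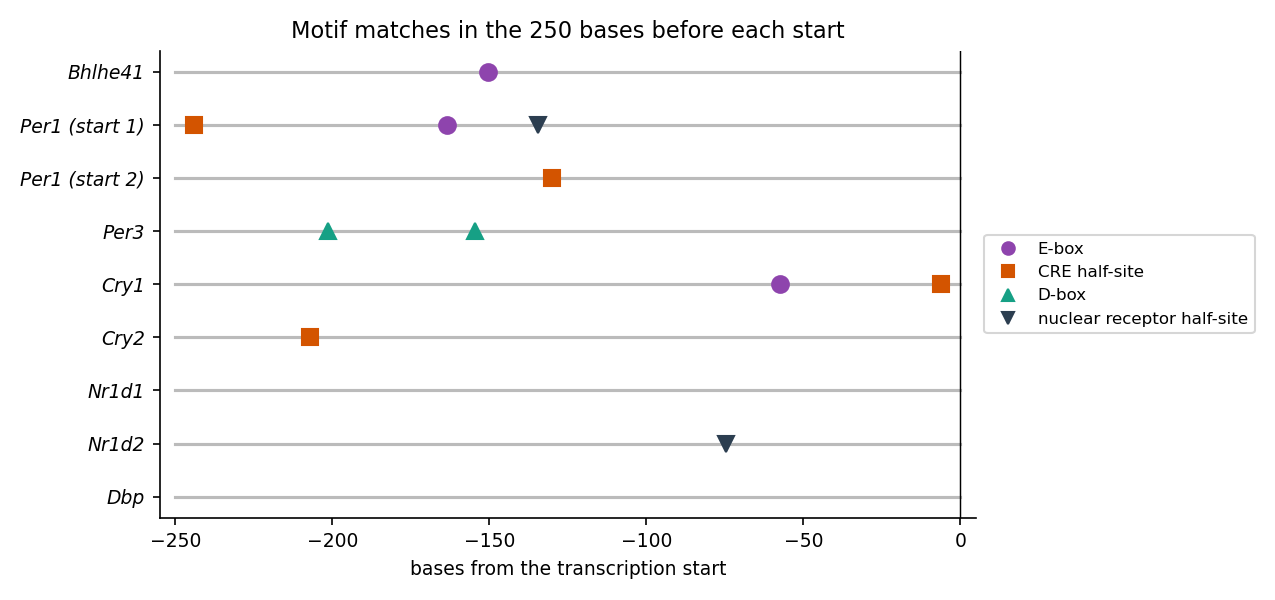
Positions of motif matches in the 250 bases before each start of the 8 members with a promoter entry, with the distance to the start in bases on the horizontal axis and a symbol at the middle of each match. Per1 start 1 holds an E-box that begins 166 bases and a TGACG half-site that begins 246 bases ahead of the start. Per3 holds 2 D-boxes of the 1 form searched, and Nr1d1 and Dbp hold none of the motifs searched.

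The rest of the clock pathway was read from lists of 38 genes, of which 32 had a cluster of their own and 30 passed the filter. Of these 30, 3 were called higher, 1 lower and 26 were not called, or 13.3% called against 7.80% of all clusters. Their median log2 difference was 0.05, with differences from -0.56 to 0.91. Groups did not overlap for 17 of the 30, against 26.5% of all tested clusters. The 6 genes without a cluster of their own were not analysed here.

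None of the 4 genes of the activator arm passed, a count of 0, and at an unadjusted p below 0.05 the limma fit also held 0. Clock read 8.72, 8.44 and 8.62 in knockout and 8.57, 8.58 and 8.59 in wild type, and differed by 0.01 (interval -0.18 to 0.21). Its difference was -0.02 after the array medians were aligned and -0.05 without knockout array 1. Arntl, encoding BMAL1, read 6.31, 6.25 and 6.42 in knockout and 6.23, 6.27 and 6.31 in wild type, and differed by 0.06 (interval -0.11 to 0.22). Npas2, which can stand in for Clock, differed by 0.07 and Arntl2, the BMAL1 relative, by 0.10. The 4 genes had adjusted p-values between 0.43 and 0.95 (limma).

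Rora, an activator of Arntl, differed by 0.20 on its brightest cluster (interval -0.05 to 0.46; limma, adjusted p = 0.35), whose name places it on no chromosome. Rorb was too dim to test. Among the D-box factors, Hlf was called lower: it read 9.14, 9.11 and 9.16 in knockout and 9.65, 9.68 and 9.75 in wild type, with no overlap. Hlf fell by 0.56 on the log2 scale (SE 0.06; limma, adjusted p = 0.0028). Hlf is also a transcription factor of HSCs, so it does not report the clock alone. Tef, of the same family, differed by -0.03 (interval -0.17 to 0.11). Nfil3, the repressor at D-boxes, read 5.21, 5.55 and 5.11 in knockout and 4.97, 4.79 and 4.90 in wild type. Its groups did not overlap, the difference was 0.40 with an interval of 0.11 to 0.70, and it was not called (limma, adjusted p = 0.12).

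Kinases, phosphatases and ligases set the stability of PER and CRY proteins. Of 12 tested, 1 was called higher and 0 lower, against 2.96% and 4.84% of all tested clusters. The list median was 0.05, with differences from -0.24 to 0.45. At an unadjusted p below 0.05 the limma fit held 7 of the 12, against 21.6% of all tested clusters. Groups did not overlap for 7 of the 12, against 26.5% of all tested clusters. The called gene was Usp2, a deubiquitinase with a clock-driven transcript. It read 6.08, 5.96 and 5.99 in knockout and 5.53, 5.54 and 5.61 in wild type. Usp2 rose by 0.45 (limma, adjusted p = 0.010), and the call was lost without wild-type array 2 (0.051). The PER kinase genes Csnk1d and Csnk1e did not pass. They differed by -0.0033 and 0.05, and they were named after their values were seen.

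Of 10 tested cofactors and repressors 2 were called higher and 0 lower, against 2.96% and 4.84% of all tested clusters. The list median was -0.01, within rounding of 0, and the differences ran from -0.22 to 0.91. At an unadjusted p below 0.05 the limma fit held 5 of the 10, against 21.6% of all tested clusters. Groups did not overlap for 7 of the 10, against 26.5% of all tested clusters. Id2, a helix-loop-helix inhibitor that can hold back CLOCK and BMAL1 in mice, read 8.31, 8.20 and 8.57 in knockout and 7.61, 7.39 and 7.36 in wild type. Id2 rose by 0.91 (SE 0.12; limma, adjusted p = 0.0071). Crem, whose ICER product is a cAMP-induced repressor, rose by 0.34 (limma, adjusted p = 0.032). Its call was lost whichever array was left out, with adjusted p-values between 0.069 and 0.10. Without wild-type array 2 Id2 was the 1 gene of the 30 still called higher.

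Over the members beside Bhlhe40 and these genes, 38 were tested and 33 not called. For 32 of the 33 the interval of the difference lay between -0.5 and 0.5 on the log2 scale, and Nfil3 was the exception.

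**Figure D3:**
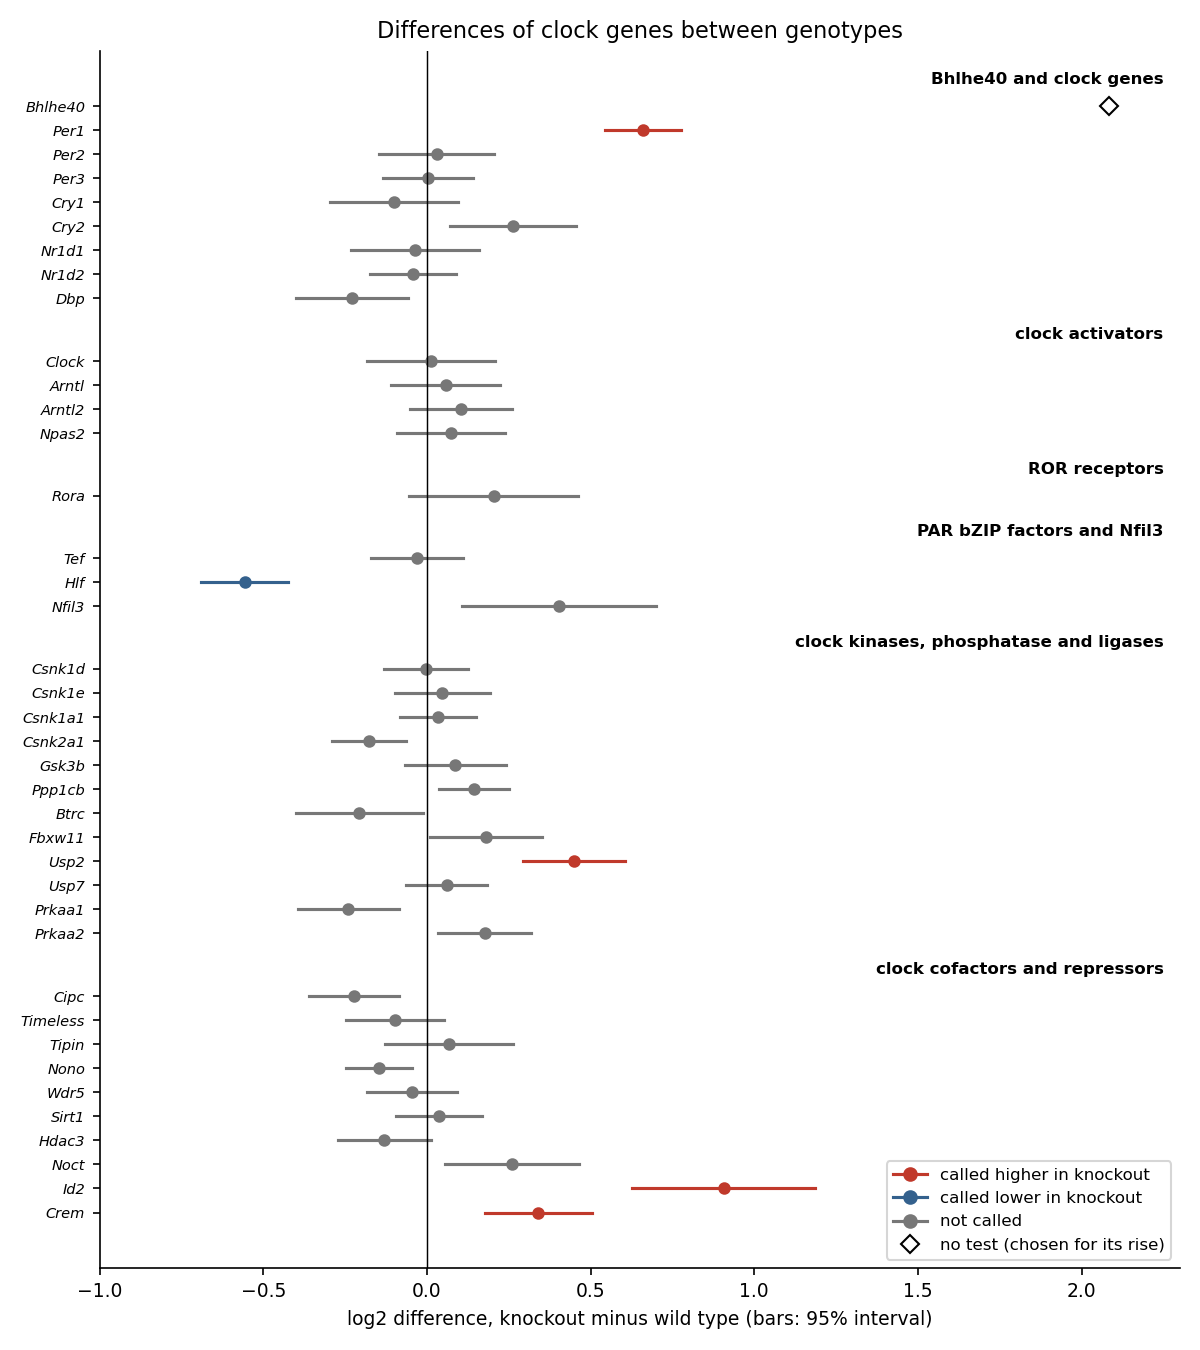
Log2 differences, knockout minus wild type, of Bhlhe40, of the 8 other tested members and of the other clock pathway genes, with 95% intervals as bars. Bhlhe40 stands at 2.08 without an interval, Per1 at 0.66, Id2 at 0.91 and Hlf at -0.56, while the activators and most other genes lie close to 0.

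Genes known to follow the clock in other tissues changed in both directions. Of 10 tested, 4 were called higher and 2 lower, with a median of 0.10, against 2.96% and 4.84% of all tested clusters. Klf10 rose by 1.24, Klf9 by 1.25, and Cxcr4, the receptor that holds HSCs in the marrow, by 1.07, while Usp2 is given above. Cxcr4 read 13.37, 13.36 and 13.64 in knockout and 12.44, 12.25 and 12.48 in wild type, with no overlap. Hlf fell as given above, and Wee1, the kinase gene that delays mitosis, had a log2 difference of -0.31 (limma, adjusted p = 0.049). Wee1 lost its call whichever array was left out (adjusted p from 0.073 to 0.17), so 1 gene of the list was then called lower. Nampt, the NAD+ enzyme gene driven by CLOCK, was not called at 0.23 and was named after its value was seen. These genes also answer to other signals: Klf10 to TGF-beta and Klf9 to glucocorticoids.

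BHLHE40 belongs with the HES and HEY repressors to the bHLH-Orange family. Of 6 tested HES and HEY genes 2 were called higher and 0 lower, with a median of 0.04. Among all tested clusters 2.96% were higher and 4.84% lower. Hey1 read 8.21, 8.09 and 8.14 in knockout and 6.71, 6.82 and 6.61 in wild type, no array of either group being near the other. Hey1 rose by 1.43 (SE 0.08; limma, adjusted p = 2.9e-04). Hes1, a Notch target, rose by 0.38 (limma, adjusted p = 0.018). The Hes1 call was lost without knockout array 3 (0.055) or wild-type array 1 (0.070), 2 (0.076) or 3 (0.075). The other 4 had differences between -0.01 and 0.09, and Hes2, Hes3 and Heyl were too dim to test.

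Signals that are known to induce Bhlhe40 or Per1 were read from 3 lists, chosen with earlier results of these data known. Of 11 tested genes of the cAMP and CREB response, 6 were called higher and 0 lower, with a median of 0.25. The shares of all tested clusters called higher and lower were 2.96% and 4.84%. Nr4a3 rose by 1.997, Fosl2 by 1.79, Nr4a2 by 1.33 and Sik1, a kinase gene that restrains CREB, by 0.44. Crem is given above, and Fosb rose by 0.25 (limma, adjusted p = 0.019), a call lost with 1 of 4 arrays left out (adjusted p up to 0.061) and after the array medians were aligned (0.10). Nr4a1 and Dusp1 averaged 18.79 and 18.50 in knockout and 18.71 and 18.50 in wild type. Both lie near the ceiling of 19.93 of the values, where a change may be hard to see.

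Of 12 glucocorticoid response genes 6 were called higher and 1 lower, with a median of 0.21, and Per1 is 1 of the 6. Among all tested clusters 2.96% were higher and 4.84% lower. Klf9 and Ddit4, an inhibitor of mTOR signalling, rose by 1.25 and 0.93. Fkbp5, a chaperone gene that is among the most used readouts of this hormone, fell: it read 6.96, 7.01 and 7.06 in knockout and 7.44, 7.48 and 7.54 in wild type, a log2 difference of -0.48 (limma, adjusted p = 0.0075). Besides, Mt1, a metallothionein gene, rose by 1.12, Errfi1 by 0.55 and Sgk1, a kinase gene, by 0.29. With 1 array left out, Sgk1 lost its call in 6 of 6 runs (limma, adjusted p from 0.086 to 0.13) and Errfi1 in 5 of 6 (up to 0.12), and Mt1 without wild-type array 2 (0.055). Tsc22d3, encoding GILZ, was not called at -0.07; it and the 3 genes just given were named after their values were seen. Without wild-type array 2, 3 genes were called higher.

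Of 13 tested hypoxia response genes 7 were called higher and 0 lower, with a median of 0.32. Among all tested clusters 2.96% were higher and 4.84% lower. Vegfa, the vascular growth factor gene, rose by 1.65, the glucose transporter gene Slc2a1 by 1.18, the oxygen sensor gene Egln3 by 0.64 and the glycolysis regulator gene Pfkfb3 by 0.63. Their adjusted p-values lay between 4.3e-04 and 0.0032 (limma). The other called genes were Hk2, encoding a hexokinase, at 0.71, Ldha, encoding lactate dehydrogenase, at 0.32 and Ndrg1 at 0.27, also named after their values were seen. With 1 array left out 5 to 6 genes of the list were called higher: Ndrg1 lost its call in 6 of 6 runs (limma, adjusted p from 0.066 to 0.16) and Ldha without wild-type array 2 (0.069) or 3 (0.069). The genes Bnip3, Car9 and Ankrd37, direct HIF targets named after their values were seen, differed by -0.11, -0.04 and -0.06 and were not called.

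BHLHE40 is known in mouse T cells and macrophages for repressing Il10. In these HSCs Il10 was higher alongside Bhlhe40: it read 6.44, 6.49 and 6.54 in knockout and 5.21, 5.29 and 5.40 in wild type. Il10 rose by 1.19 (SE 0.07; limma, adjusted p = 5.6e-04). Of the 14 immune genes linked to BHLHE40, 7 were tested, 4 called higher and 2 lower, with a median of 0.51. Among all tested clusters 2.96% were higher and 4.84% lower. Besides Il10, the inflammatory factor gene Cebpb rose by 1.06, the cytokine genes Il1b and Tnf by 0.63 and 0.51. Tnf lost its call without wild-type array 1 (0.055) or 3 (0.062). Myc, a driver of growth, and Cd69, an activation marker, had log2 differences of -1.15 and -0.50. Csf2, Ifng, Il6, Prdm1 and Pparg were too dim to test.

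**Figure D4:**
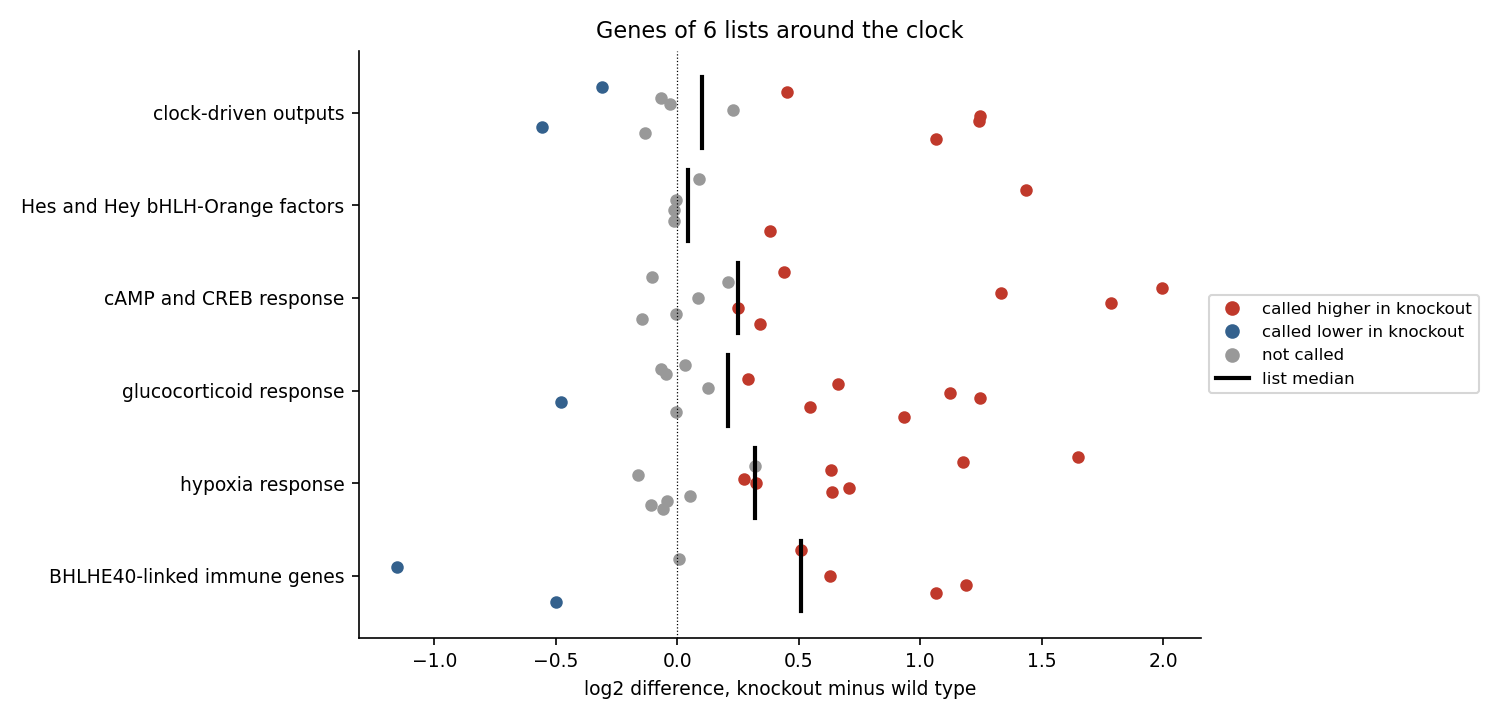
Log2 differences, knockout minus wild type, of the tested genes of 6 lists, a point for each gene coloured by its call and a bar at the median of the list. The hypoxia list, the cAMP and CREB list and the HES and HEY list hold called genes on the higher side alone, with medians of 0.32, 0.25 and 0.04, and the other medians run from 0.10 to 0.51.

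Markers of other cells moved with genotype too, where 2.96% of all tested clusters were called higher and 4.84% lower. All 10 measured stem and progenitor markers passed the filter. In wild type Cd34 averaged 15.97, Kit 14.53, Flt3 14.51, Cd48 11.30, Procr 7.29 and Slamf1 5.78. These levels come from different probes and cannot rank the markers. Passing the filter does not tell stem cells from progenitors, and the share of each in the sorted cells was not tested. Of the 10 stem and progenitor markers, 3 fell: Kit, Flt3 and Meis1, with log2 differences of -0.47, -0.89 and -0.86. Of 8 lymphoid and B cell markers 5 fell: Dntt, Il7r, Ighm, Ebf1 and Cd79a had log2 differences of -1.34, -1.08, -0.99, -0.83 and -0.61. Pax5, Cd79b and Vpreb1, named after their values were seen, were not called at -0.08, -0.09 and 0.02. The summed level of the list was 12.15 to 12.31 in knockout and 13.36 to 13.41 in wild type on the log2 scale. Dntt, its brightest gene at 11.40 in knockout and 12.74 in wild type, weighs most in that sum. Of 6 tested genes of the megakaryocyte list 4 were called higher, F2r by 1.15, Itgb3 by 0.60, Itga2b by 0.56 and Gp9 by 0.56. Pf4 and Vwf, named after their values were seen, were not called at 0.26 and 0.15. The list had a summed level of 10.95 to 11.02 in knockout and 10.05 to 10.11 in wild type. Its brightest gene was F2r, at 10.46 in knockout and 9.31 in wild type, so F2r weighs most in that sum. Itgb3 lost its call in 4 of 6 runs with 1 array left out (limma, adjusted p up to 0.062). Of 8 monocyte and macrophage markers, cells in which Bhlhe40 is active, 1 rose, Cd14 by 0.79, and the summed level was 12.14 to 12.79 in knockout and 12.44 to 12.72 in wild type. In bulk samples fewer cells of a type and less RNA per cell cannot be told apart, and the part of these markers in the differences of Bhlhe40, Per1 and Hlf was not tested.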

How the data were processed

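Per the labels' protocols, total RNA of sorted HSCs was isolated with Trizol and given a biotin label. The deposited table holds 1 value per transcript cluster and array, 65956 clusters on 6 arrays, and no column was left unmapped. The submitters' processing notes name MAS5 alone; the deposited values, from 2.04 to 19.93 with array medians of 4.40 to 4.48, lack its linear form and were read as log2, so fold sizes rest on that reading. How background was corrected and arrays normalized is not given in the sources used here. Precision is limited by the number of arrays.

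Gene names came from the platform annotation, repeated copies of a symbol counted as 1: 30604 clusters had 1 symbol, 2146 several and 33206 none. Symbols of 827 were updated through the gene ID with the RefSeq table. The brightest cluster by mean over 6 arrays stood for a gene. The dimmest 40% of clusters were left out, and limma 3.58.1 (R 4.3.3; genotype as the only term, intensity trend) was fitted to the 39543 kept. Python 3.11.15 with pandas 2.3.3, scipy 1.17.1 and matplotlib 3.10.9 did the rest.

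The members and lists were chosen with earlier results of these data known. All members were named, with Cdk19, and from each list all called genes up to 6, otherwise the 4 with the smallest p; all measured activators, ROR and D-box genes; and the neighbours and 5 nearest genes of Bhlhe40. Alternatives were 2 other normalizations, 2 other filters, no trend, a replicate block, the mean of a gene's clusters and leaving out each array. On simulated data with 200 changed clusters among 39573, the fit recovered 63% of log2 changes of 1 and 24% of 0.5, with 1 false call among 88. That is a smaller share of changed clusters than the 7.80% called here. The adjusted threshold depends on this share, so the recovery rates do not carry over to these data.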

Additional observations from a re-analysis of the deposited data

How the results depend on the processing

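The Per1 call held under all the alternatives run, with log2 differences between 0.62 and 0.69, and the difference of Bhlhe40 stayed between 2.05 and 2.13. With 1 array left out, members called higher were 1 to 2 and other clock pathway genes called higher 1 to 2. All clusters called higher were then 540 to 970 and lower 761 to 1507, the clock-driven outputs called lower 1 in each run, and the glucocorticoid genes called higher 3 to 5. The HES and HEY genes called higher were 1 to 2. Small differences changed sign in such runs: Per2 from -0.028 to 0.067, Per3 from -0.012 to 0.013 and Nr1d1 from -0.093 to 0.012. Per3 was also at -0.027 with array medians aligned. The clock-driven outputs called lower were 1 with no filter and 1 with no intensity trend. With a stricter filter 2 other clock pathway genes were called lower, Cipc joining Hlf, where fewer clusters are tested. The cause of the other shifts was not tested.

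Same-numbered arrays showed no clear shared shift: they correlated at -0.14, -0.10 and 0.02 in their deviations from the group means. These values cannot tell whether such arrays were prepared together. With the replicate block, 630 clusters were higher and 1083 lower. Of the lists, 1 other clock pathway gene was then higher, 1 clock-driven output lower and 1 HES or HEY gene higher. Usp2, Hes1, Tnf and Ldha lost their calls with the block (limma, adjusted p = 0.055, 0.076, 0.057 and 0.079). So did Crem, Wee1, Fosb, Sgk1, Errfi1, Ndrg1 and Prtn3. Taking the mean of all clusters of a gene touched 3 listed genes and changed no count of the lists. The 3 Rora clusters differed by 0.20, 0.06 and -0.15, none called. Signal near the floor limits Bhlhe41, and signal near the ceiling limits Nr4a1, Dusp1 and Fosb.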

Other observations

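Of 4 tested mast cell and basophil markers 2 were called higher, where 2.96% of all tested clusters were called higher and 4.84% lower. They were Gzmb, by 0.83, and Cpa3, by 0.41. The Cpa3 call was lost without wild-type array 3 (limma, adjusted p = 0.051). Of 6 erythroid markers 1 was lower, the carbonic anhydrase gene Car1 with a log2 difference of -1.04. Of 4 endothelial and stromal markers 1 was lower, Pecam1, also an HSC surface protein, with -0.53, and Cdh5, Kdr, Lepr and Cxcl12 were too dim to test. Of 8 granulocyte markers 1 was higher, the protease gene Prtn3 by 0.43, a call lost in 5 of 6 runs with 1 array left out (adjusted p up to 0.15). Of 5 tested T and NK cell markers 0 were called by limma, with Cd3e, Cd8a and Ncr1 too dim to test, and at an unadjusted p below 0.05 the count was 3, where 21.6% of all tested clusters passed that mark. Without wild-type array 1 the cytotoxic granule gene Nkg7 was called higher (limma, adjusted p = 0.048), and it was named after its value was seen.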
